A study of Mus musculus with 6 samples.

Results

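Wound dendritic cells (DCs) were rare in the 3 wound libraries: 82 of 11032 kept cells passed a gate on DC genes. A cell was kept when it held at least 300 genes, under 100000 unique molecular identifiers (UMIs, 1 per captured RNA molecule) and under 10% mitochondrial UMIs. It was counted as a DC when it held UMIs of at least 3 of the 8 genes Flt3, Ccr7, Cd209a, Fscn1, Ccl22, Il4i1, Il12b and Apol7c, at least 3 UMIs of H2-Ab1, and under 5 UMIs of the macrophage genes C1qa, C1qb and C1qc together. The members were thus chosen by the values of these 12 genes, which are described below without a test and support nothing. The study asked whether DCs edited to lose Ndrg2 change the healing of skin wounds, and each wound library came from splinted full-thickness wounds of wild-type C57BL/6J mice, 6 weeks old, dressed with a pullulan-collagen hydrogel and explanted on day 10. The hydrogels of the first group were seeded with control DCs, which the labels call untreated and the paper's methods describe as electroporated with Cas9 and non-targeting guides. Those of the second group were seeded with Ndrg2-KO DCs, grown from bone marrow and edited by Cas9 with several guides, and those of the third were blank and held no cells. Cultured DCs from bone marrow, either untreated, treated with vitamin D3 or Ndrg2-KO, with 1 library each, serve for a comparison at the end. Each wound library pooled the tissue of 5 mice and each condition had 1 library, so differences between conditions could not be set against a spread of replicates and no p-value is given.

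DCs take up antigen in tissues, cut it into peptides and show these to T cells on MHC class II molecules. Conventional DCs fall into cDC1 (Xcr1, Clec9a) and cDC2 (Clec10a, Sirpa, Irf4), and both depend on the cytokine receptor Flt3. When a DC matures it switches from uptake to presentation, gains the chemokine receptor Ccr7 and migrates through lymph vessels to the draining node. In healing skin, DCs share the tissue with far more numerous macrophages and monocytes, which hold many of the same genes.

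The kept libraries held 1948 cells from control DC wounds, 5681 from Ndrg2-KO DC wounds and 3403 from blank hydrogel wounds, with a median of 10795, 4415 and 5603 UMIs per cell. The 82 DCs were deeper than this, at a median of 17403, 10473 and 14889 UMIs and a summed depth of 201031, 432875 and 596568 UMIs. Host DCs and transplanted DCs could not be told apart. The eGFP feature of the matrices gave 0 UMIs in the kept cells of all 3 libraries and the tdTomato feature gave 0 UMIs. Neither the labels nor the paper say that the seeded DCs or the mice of these libraries carried either reporter. Ndrg2, the edited gene, gave 0, 1 and 1 UMIs in the DCs of control DC, Ndrg2-KO DC and blank hydrogel wounds, too few to check the edit. Of the DCs, 2, 9 and 8 also carried RNA of the T cell, neutrophil, erythroid or fibroblast marker list (10 or more UMIs, from at least 4 genes of the list or 100 UMIs of it), and they are called mixed below. The wound libraries shared 2, 2 and 3 kept barcodes pairwise, and none of these belonged to a DC. All levels are UMIs summed over cells and scaled to a total of 1000000 (CPM), all ratios are log2 ratios of CPM, and all intervals are 95% intervals that cover counting error only. Values of the libraries are given in the order control DC, Ndrg2-KO DC and blank hydrogel wounds.

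The share of DCs among kept cells was 0.565% in control DC wounds (11 cells, exact binomial interval 0.282 to 1.01%), 0.598% in Ndrg2-KO DC wounds (34 cells, 0.415 to 0.835%) and 1.09% in blank hydrogel wounds (37 cells, 0.767 to 1.496%). The intervals of the first pair overlapped almost wholly and those of all 3 libraries overlapped in part. Among cells with a UMI of Ptprc, the pan-leukocyte gene, DCs made up 0.832%, 0.700% and 1.22%. Set against the C1q macrophages of the same wounds (at least 5 C1q UMIs, 604, 1071 and 827 cells), DCs were 1.79%, 3.08% and 4.28% of both kinds together. The gate needs UMIs and so depends on depth: when the 1923, 5586 and 3338 cells of at least 1000 UMIs were thinned to that depth it passed 0, 9 and 9 cells. At that depth the shares were 0%, 0.161% and 0.270%, where 0 cells in control DC wounds allow a share of up to 0.156% by 3 counts and up to 0.192% by the exact interval.

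**Figure D1:**
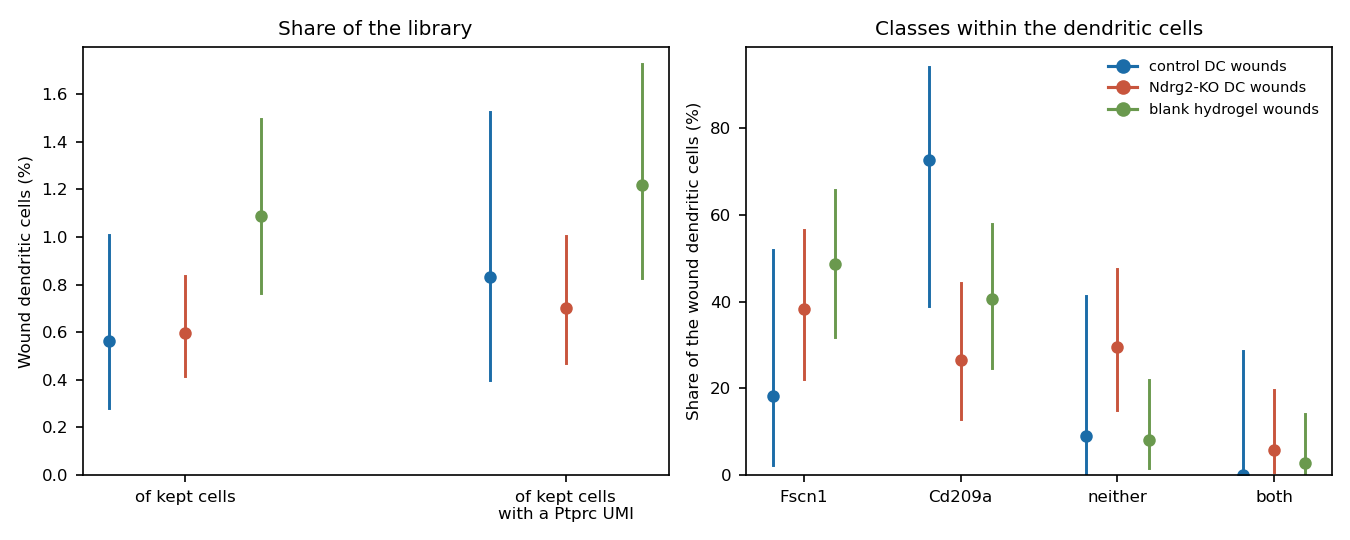
The left panel plots wound DCs as a percent of kept cells and of kept cells with a Ptprc UMI, the right panel the classes of DCs as a percent of the DCs, with 1 point per library and exact 95% binomial intervals for counting error. Blank hydrogel wounds had the highest share of kept cells (1.09%), and the Cd209a class was 72.7% of the 11 DCs of control DC wounds.

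Ccr7, the receptor that guides mature DCs to lymph nodes, was the most often held of the 8 genes. It was present in 77 of the 82 DCs (11, 34 and 32), at a median of 22.5 UMIs per cell and a range of 0 to 103. Il4i1, an enzyme that degrades phenylalanine and restrains T cells, was held by 62 DCs, and Flt3 by 61. Ccl22, a chemokine for regulatory T cells, was held by 50. Fscn1, the actin bundler of DC dendrites, was held by 36, and Cd209a, a C-type lectin of the DC-SIGN family, by 35. Il12b, which encodes the p40 subunit of interleukins 12 and 23, was held by 12, and Apol7c, an apolipoprotein L family gene of DCs, by 10. The rarer genes were concentrated in few cells, as the highest cell held 76 of the 272 Il12b UMIs and 171 of the 353 Apol7c UMIs. In fibroblast reference cells of the same libraries, which were deeper (median 29608.5, 26365.5 and 27848 UMIs), Flt3, Ccr7, Cd209a, Ccl22 and Il4i1 were held by 0.0797% to 0.558% of 1255 cells. Fscn1 was held by 61.4% of the fibroblast reference cells, so a single Fscn1 UMI is not specific to DCs, whereas C1q macrophages held it at 2.38, 4.03 and 4.60 CPM.

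At the edge of the gate, 31 DCs (3, 17 and 11) held exactly 3 of the 8 genes, 19 held 4, and 32 held 5 or more. Another 38 cells (3, 18 and 17) held 2 of the genes and met the other conditions, and 24 of them held Cd209a and 18 held Ccr7. H2-Ab1 stood at 3 to 5 UMIs in 9 DCs, and 26 cells with 3 or more gate genes fell short of 3 UMIs. C1q genes gave UMIs in 15 DCs, with a highest sum of 4, and 9 cells missed the gate on C1q alone.

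The gate genes did not occur evenly together. Cd209a and Fscn1 were both present in 3 cells, which is 8.57% of the 35 Cd209a cells and 8.33% of the 36 Fscn1 cells. By contrast, each of the 36 Fscn1 cells, the 50 Ccl22 cells, the 12 Il12b cells and the 10 Apol7c cells held Ccr7. The 10 Apol7c cells also all held Fscn1, and 0 of them held Cd209a. Il4i1 was present in 33 of the 36 Fscn1 cells and in 18 of the 35 Cd209a cells. Flt3 was spread more widely, in 30 of the 36 and 24 of the 35.

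**Figure D2:**
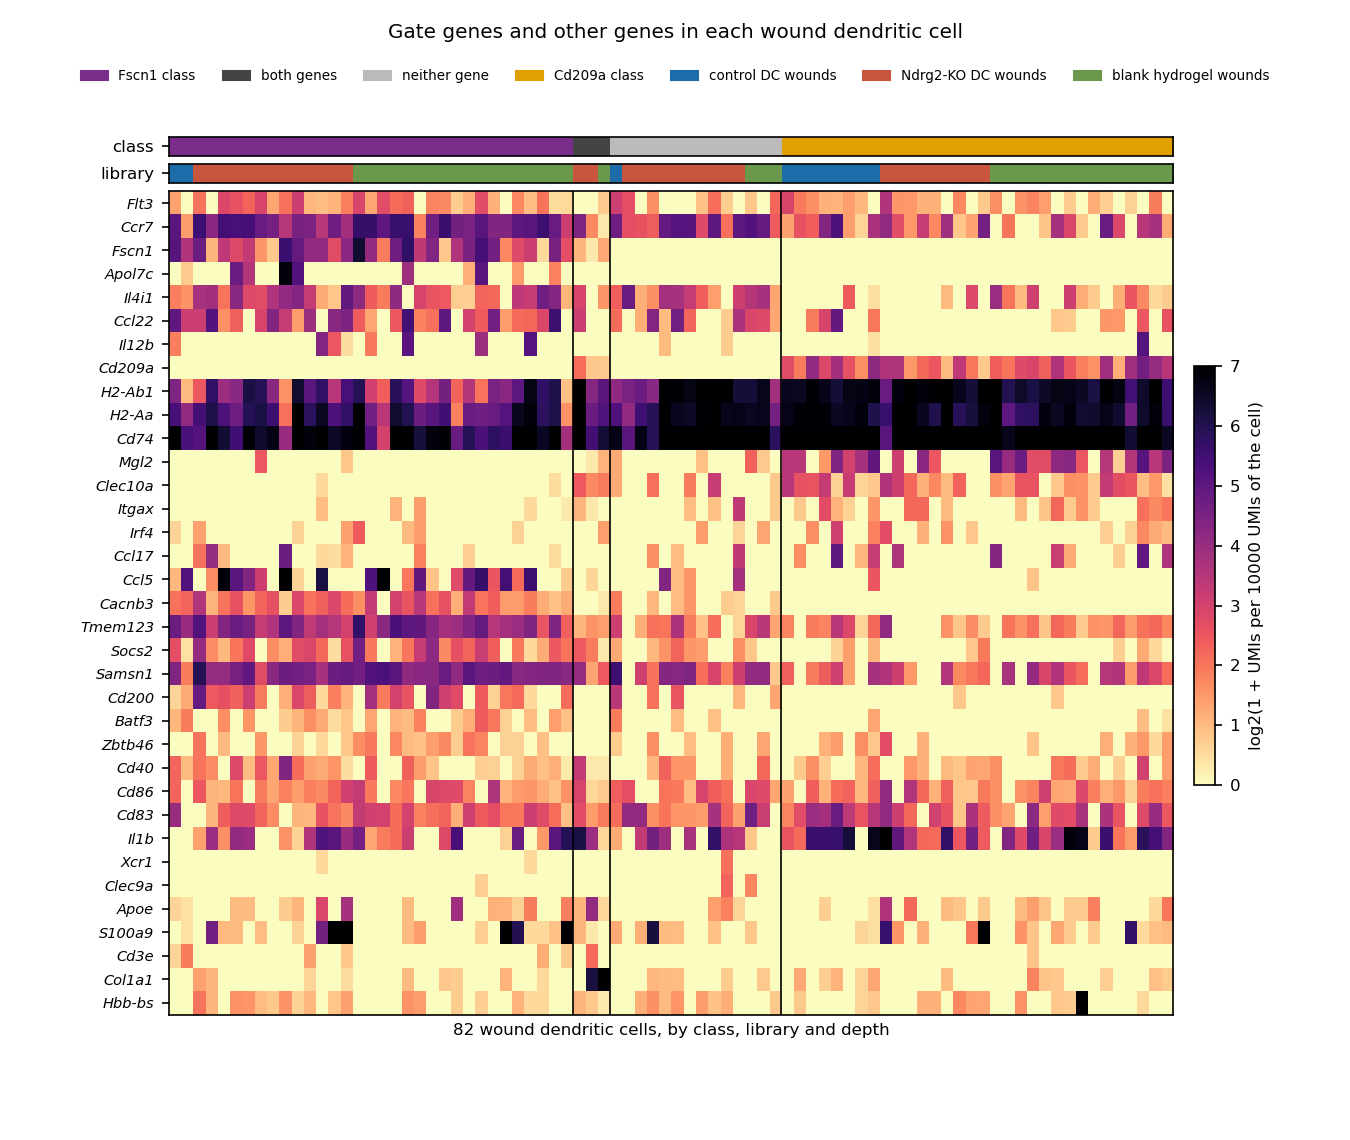
Each column is 1 of the 82 wound DCs, ordered by class, library and depth, and each row is a gene, with colour for log2(1 + UMIs per 10000 UMIs of the cell). Fscn1 and Cd209a share 3 columns, Mgl2 and Clec10a lie mostly under Cd209a, Ccl5, Cacnb3 and Cd200 mostly under Fscn1, and the dark S100a9, Col1a1 and Hbb-bs cells are mixed members.

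MHC class II genes were the most abundant of the listed DC genes. Cd74, the invariant chain that guards the peptide groove, stood at 17186, 14914 and 12602 CPM in the DCs and 1513, 1750.1 and 1483 CPM in all other kept cells. H2-Aa, the alpha chain of I-A, stood at 7829.6, 7727 and 5894 CPM against 669, 743 and 651 CPM, and all 82 DCs held it (3 to 259 UMIs, median 96.5). H2-Aa was also higher than in C1q macrophages, which had 1856, 1489.6 and 1243 CPM. H2-Eb1, the beta chain of I-E, stood at 7198, 7861 and 6035 CPM against 517, 639 and 518 CPM. Among the peptide-loading genes, H2-DMb2 had 119, 99.3 and 85.5 CPM in the DCs and 1.53, 1.45 and 2.48 CPM in other cells, and H2-Oa, which encodes a chain of the loading inhibitor, 64.7, 43.9 and 43.6 CPM against 0.475, 0.902 and 0.845 CPM. H2-Oa is best known from B cells, and 4 of the 5 genes of the B cell list gave 0 UMIs in the DCs. Ciita, the master activator of the class II genes, had 29.8, 37.0 and 33.5 CPM against 2.34, 2.99 and 3.26 CPM.

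By a rule of size in place of a test (at least 2-fold the same way in each of the 3 libraries, among 13004 genes with at least 20 UMIs in DCs and other cells together in each library), 3.52% of genes were higher in DCs than in other kept cells and 5.03% were lower. Of the 11 MHC class II genes tested, 9 were higher and 1, the endosomal protease Lgmn, was lower, at 104, 189 and 148 CPM against 628, 588 and 821 CPM. The median log2 ratio of the list was 3.37, beside 0.17 over all genes tested. The gate required UMIs of H2-Ab1, whose promoter is controlled like those of the other class II chains, so the choice of cells favours this excess, which is given as a description. Ctss, the protease that trims the invariant chain, was within 2-fold at 965, 1077 and 1089.6 CPM against 1236, 1146 and 1449 CPM and was lower than in C1q macrophages by the same rule.

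The class II chain genes lie together on chromosome 17 and share a promoter element, the Y box, that binds the factor NF-Y beside the Ciita complex. RefSeq promoters (GRCm38.p6, 250 bases before to 50 after a start) were found for 10 of the 12 list genes. The 8 bases CTGATTGG were sought on both strands, and 3 of the 12 promoters of these genes held them (25%), beside 4.10% of 32851 promoters of all genes. For these 3 genes, the 150 bases before the start are shown 5′ to 3′ on the gene's strand with the Y box in capitals, because the class II genes are the most abundant of the listed DC genes. The element lies 51 bases before the start in H2-Aa (chr17:34287824-34287973, minus strand), 62 in H2-Eb1 (chr17:34305717-34305866, plus strand) and 46 in H2-Oa (chr17:34092229-34092378, plus strand).
H2-Aa: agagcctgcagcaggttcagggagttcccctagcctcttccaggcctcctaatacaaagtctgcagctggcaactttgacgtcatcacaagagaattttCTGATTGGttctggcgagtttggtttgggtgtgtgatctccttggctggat
H2-Eb1: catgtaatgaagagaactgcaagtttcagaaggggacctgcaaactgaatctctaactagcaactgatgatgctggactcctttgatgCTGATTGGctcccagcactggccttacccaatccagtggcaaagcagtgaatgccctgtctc
H2-Oa: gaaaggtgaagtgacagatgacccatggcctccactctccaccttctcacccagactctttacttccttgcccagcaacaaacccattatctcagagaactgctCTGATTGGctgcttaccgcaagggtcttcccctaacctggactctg
The match is exact, so a Y box with another base is not counted. The kappa B motif, bound by the NF-kappa B factors of DC maturation, was found in 3 of the same 12 promoters (25%), in 1 of 16 promoters of the mature DC list (6.25%) and in 0 of 7 of the gate genes, beside 8.46% of all promoters. These are matches of letters and say nothing of binding in these cells.

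**Figure D3:**
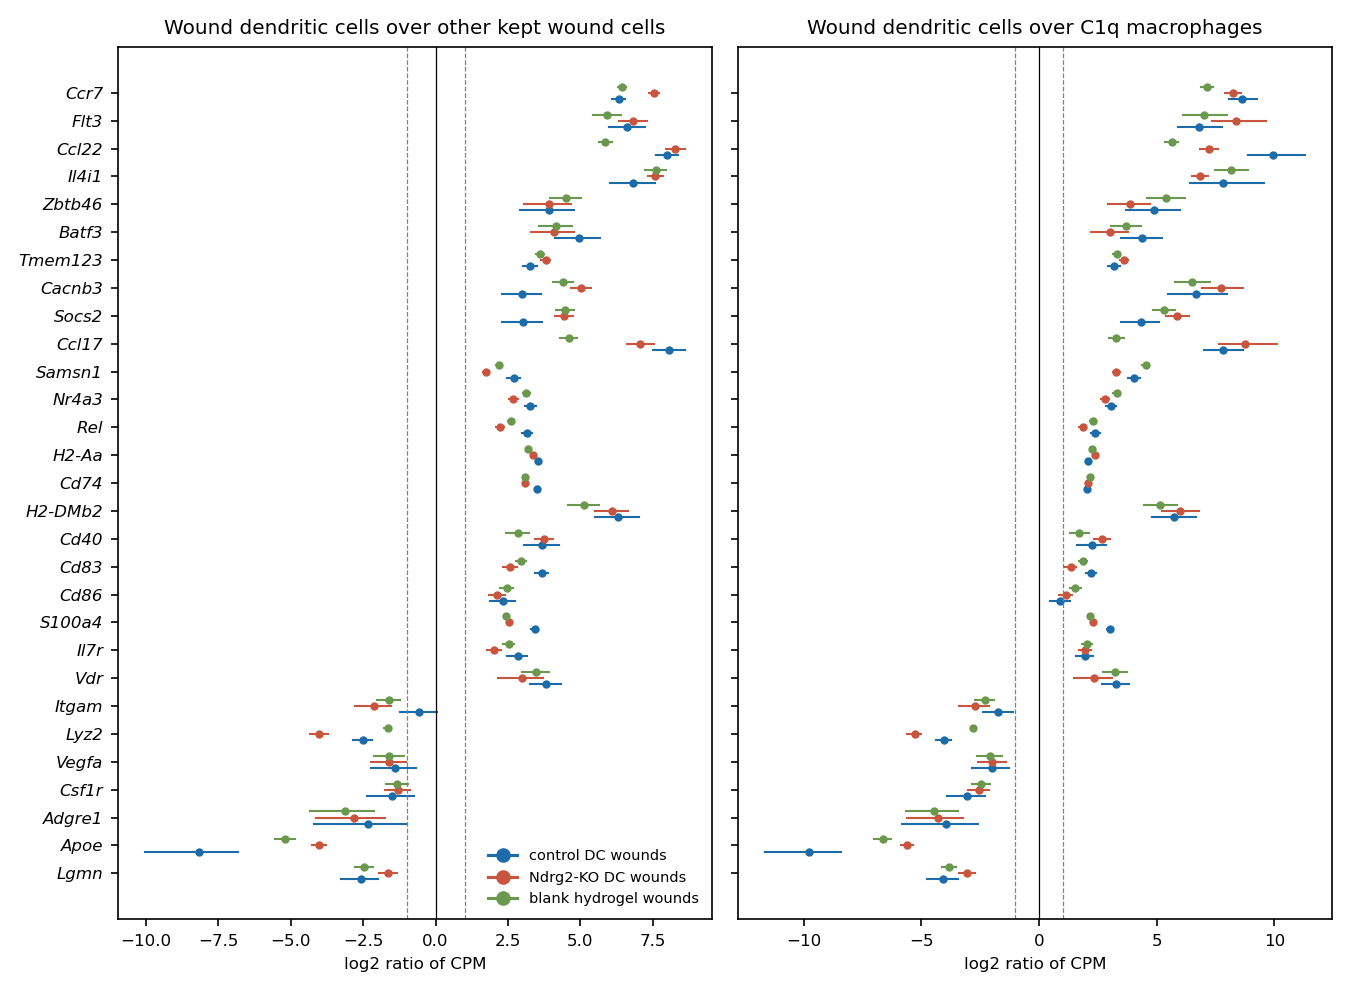
Points are log2 ratios of CPM of the wound DCs over all other kept cells (left) and over C1q macrophages (right), 1 per library, with 95% intervals for counting error and dashed lines at 2-fold. Ccr7, Flt3, Ccl22 and Il4i1 were gate genes, H2-Aa and Cd74 lie above the upper dashed line in both panels, and Lyz2, Vegfa, Csf1r, Adgre1, Apoe and Lgmn lie below the lower one.

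The label of these cells was checked on DC genes that the gate did not use. Zbtb46, the transcription factor of conventional DCs, stood at 59.7, 37.0 and 72.1 CPM in the DCs, 3.94, 2.46 and 3.21 CPM in other cells and 2.04, 2.55 and 1.73 CPM in C1q macrophages. It was held by 36 of 82 DCs and by 11.25%, 8.95% and 13.9% of the fibroblast reference cells, which were deeper. Zfp366, the DC factor DC-SCRIPT, ranked first outside the gate by the smallest of its ratios to other cells in the 3 libraries, at 69.6, 50.8 and 36.9 CPM against 0.441, 0.471 and 0.379 CPM. It was picked by its ratio in these same cells, so it describes them and is no check of the label. It was held by 4, 12 and 13 DCs. Batf3, which cDC1 and mature DCs use, had 89.5, 43.9 and 58.7 CPM against 2.92, 2.60 and 3.29 CPM. Itgax, which encodes CD11c, was less specific, at 89.5, 67.0 and 65.4 CPM against 16.1, 20.8 and 29.6 CPM, and 28 of 82 DCs held it. Of the pan-DC list, 3 of 6 genes were higher and 0 lower, with a median of 1.97.

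Subset markers were uneven. The cDC1 receptors Xcr1 and Clec9a gave few UMIs, 0, 6 and 1 of Xcr1 and 0, 6 and 4 of Clec9a, and 5 of the 82 DCs held either of them, though 40 held at least 3 of the 10 cDC1 list genes, which include the shared genes Irf8, Batf3, Naaa and Ppt1. Mgl2, a galactose lectin of dermal cDC2, stood at 920.3, 73.9 and 555 CPM against 31.8, 18.4 and 21.4 CPM and was held by 32 DCs and 0.319% of fibroblast reference cells. Of the 8 cDC2 genes tested, 3 were higher (Mgl2, Irf4 and Tnip3) and 1 lower, Klf4, at 164, 109 and 149 CPM against 1050.5, 669.7 and 682 CPM. Cd207, the langerin of Langerhans cells, gave 0, 2 and 0 UMIs, and Siglech of plasmacytoid DCs 0, 0 and 2 UMIs. Epcam and Cdh1, adhesion genes that Langerhans cells share with keratinocytes, were higher than in other cells, with 8, 15 and 10 UMIs of Epcam and 13, 7 and 28 UMIs of Cdh1. Of 4 plasmacytoid genes tested, 0 were higher, and Ly6d and Klk1 gave no UMI.

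Genes of DC maturation were the next group. Of 16 mature DC genes, 11 were higher than in other cells and 0 lower, with a median log2 ratio of 3.01. Tmem123, a surface mucin of migrating DCs, stood at 766, 792 and 937 CPM against 80.0, 56.9 and 77.1 CPM and Samsn1, a signalling adaptor, at 890.4, 1369.9 and 1432 CPM against 138, 409.8 and 314 CPM. Ccl17, a chemokine for Ccr4 T cells, had 408, 203 and 215 CPM against 1.53, 1.52 and 8.89 CPM, although only 24 DCs held it. Cacnb3, a calcium channel subunit, had 104, 201 and 158 CPM against 13.1, 6.15 and 7.46 CPM, and Socs2, a brake on cytokine signals, 99.5, 245 and 211 CPM against 12.1, 11.3 and 9.50 CPM. Not all of these genes are specific to DCs. Of the fibroblast reference cells, which were deeper, 78.5%, 68.8% and 70.3% held Tmem123 and 38.1%, 31.9% and 32.2% held Cacnb3. Socs2 was held by 16.9%, 27.1% and 14.8% of them and Ccl17 by 0%. Tbc1d4, a Rab GTPase regulator, had 691, 797 and 1078 CPM against 22.7, 19.4 and 21.4 CPM. Those tested but not past the rule were Cd274, Cd63, Il15ra, Birc3 and Marcksl1.

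Of 7 costimulatory ligands tested, 4 were higher and 0 lower: Cd40 (129, 217 and 106 CPM against 10.0, 16.1 and 14.7), Cd80 (204, 76.2 and 146 against 17.8, 25.5 and 25.4), Cd83 (925, 367 and 533 against 73.2, 61.9 and 68.5) and Cd86 (244, 268 and 272 against 48.6, 61.4 and 49.7). Of 21 transcription factors tested, 11 were higher and 2, with Klf4 among them, lower. The NF-kappa B member Rel, which drives Il12b, stood at 1418, 1077 and 1391 CPM against 158, 231 and 229 CPM and was held by all 82 DCs. Relb, the member of the non-canonical pathway, had 194, 266 and 261 CPM against 44.9, 54.6 and 51.0 CPM. Nr4a3, an orphan receptor of migrating DCs and 1 of the 15 genes listed from the study, had 1139, 882 and 1086 CPM against 118, 137 and 123 CPM. Of 11 growth factor and cytokine receptors, 4 were higher and 1, Csf1r, lower. Csf2rb, the shared chain of the GM-CSF receptor, had 1283, 1035 and 821 CPM against 188, 315 and 309.7 CPM, and Il7r 368, 305 and 382 CPM against 51.6, 75.2 and 66.3 CPM.

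Macrophage genes were low, which the limit on C1q UMIs favours. Of 9 macrophage genes, 7 were lower than in other cells and 0 higher, and all 9 were lower than in C1q macrophages (5.71% of 10094 genes were lower and 4.26% higher in that comparison). Apoe, the lipid carrier, stood at 19.9, 303 and 112 CPM in DCs and 17603, 14786 and 11112 CPM in C1q macrophages, and Mertk, the receptor for apoptotic cells, gave 0 UMIs in all 82 DCs. Lyz2, the myeloid lysozyme, had 413, 219 and 912 CPM against 6794, 8566 and 6283 CPM. Against 49, 136 and 87 monocytes with UMIs of both Ly6c2 and Ccr2, 4.08% of 4140 genes were higher in DCs and 4.81% lower. All 8 monocyte list genes were lower in each library there, Ly6c2 and Ccr2 being used to choose the monocytes. This group was not free of T cell RNA: the T cell list had a median log2 ratio of -0.83 for DCs over it, beside 1.55 over other kept cells. Cd14 was 458, 799 and 799.6 CPM in the DCs.

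Secreted signals went both ways. Of 11 chemokines outside the gate, 3 were higher than in other cells (Ccl17, Ccl5 and Cxcl16) and 6 lower (Ccl2, Ccl3, Ccl4, Ccl6, Cxcl2 and Cxcl10). Ccl2, which draws monocytes, stood at 29.8, 37.0 and 218 CPM against 2082, 1765 and 1284 CPM, and Cxcl16, a membrane-bound ligand for Cxcr6 T cells, at 552, 723 and 503 CPM against 89.4, 117 and 144 CPM. Of 11 cytokines tested, Ebi3, a subunit of interleukins 27 and 35, was higher, and Il6, Il1a and Il10 were lower. Il10, an anti-inflammatory cytokine of wound macrophages, gave 4, 2 and 0 UMIs in the DCs and stood at 240.2, 313 and 194 CPM in C1q macrophages. Il1b was high in the DCs and in all other kept cells, at 3243, 1629 and 2105 CPM against 669, 3346 and 1744 CPM. Among inhibitory genes, Pdcd1lg2, the PD-1 ligand PD-L2, had 49.7, 150.2 and 90.5 CPM against 7.53, 16.6 and 8.31 CPM, and 0 of 9 interferon-stimulated genes passed the rule either way.

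A list of 15 signals that the study followed moved in both directions. Against other cells 2 were higher (Nr4a3 and S100a4), 6 were lower (Vegfa, Igf1, Spp1, Fn1, Arg1 and Mgst1) and 7 passed neither way. Vegfa, the main angiogenic factor, stood at 74.6, 57.8 and 53.6 CPM in DCs, 195, 174 and 162 CPM in other cells and 298, 228 and 224 CPM in C1q macrophages, and 28 DCs held it. S100a4, a calcium-binding protein of motile cells, had 3089, 3079 and 3503 CPM against 287, 531 and 647 CPM. Igf1 gave 0, 18 and 1 UMIs and Arg1 0, 5 and 11 UMIs. The vitamin D receptor Vdr was higher, at 164, 37.0 and 83.8 CPM against 11.7, 4.69 and 7.61 CPM, while the enzymes Cyp27b1 and Cyp24a1, which activate and break down the hormone, were at 0 UMIs in the DCs.

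RNA of other cell types moved with some of these values. The fibroblast list (6 of 6 lower) summed to 109, 2786 and 1978 CPM in the DCs beside 48864, 22041 and 22445 CPM in other cells, the neutrophil list to 44.8, 8268 and 5652 CPM beside 8141, 25860 and 20311 CPM, and the erythroid list to 54.7, 132 and 5870 CPM. The monocyte list summed to 1065, 1557 and 2357 CPM in the DCs, and 4 of 6 of its genes were at least 2-fold higher in blank hydrogel than in control DC wounds, while 4 of 6 were lower and 1 higher in Ndrg2-KO DC than in blank hydrogel wounds. Of all genes tested, 10.9% were higher in the first of these comparisons, and 3.65% were lower and 2.67% higher in the second. The highest cell of blank hydrogel wounds gave 142 UMIs of Lyz2, a gene of this list. The T cell list summed to 900, 561 and 459 CPM, above the 171, 195 and 141 CPM of other cells, and 3 of 7 genes were higher (Cd3d, Trac and Il7r), though 8 of 82 DCs held Cd3e. Their part in the ratios was not tested.

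The DCs fell into classes by Fscn1 and Cd209a, chosen after the values were seen because classes by Ccr7 would have placed 77 of 82 cells in 1 class. The Fscn1 class (Fscn1 without Cd209a) held 33 cells (2, 13 and 18) with 530031 UMIs, and the Cd209a class (Cd209a without Fscn1) 32 cells (8, 9 and 15) with 445852 UMIs. Their median depth was 15453 and 14009.5 UMIs over all wounds, 24108 and 16922.5 in control DC, 13484 and 8493 in Ndrg2-KO DC and 15761 and 14889 in blank hydrogel wounds. Another 14 cells (1, 10 and 3) held neither gene and 3 held both. The mixed cells numbered 11 in the Fscn1 class and 5 in the Cd209a class, and both Fscn1 cells of control DC wounds were mixed.

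Of 2347 genes with at least 50 UMIs in the classes together, 8.82% were higher in the Fscn1 class (at least 2-fold in the sum and in both Ndrg2-KO DC and blank hydrogel wounds) and 6.9% were lower. These are 207 and 162 genes, of which 194 and 153 stayed 2-fold apart without the mixed cells, and 184 and 150 had the same sign in control DC wounds. The classes were cut from the counts of the same cells, so this describes them and tests nothing. The median log2 ratio of Fscn1 over Cd209a class was -0.08 over all 2347 genes.

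Most of the mature DC genes tested were higher in the Fscn1 class, but Ccl17 of this list had a negative ratio in sum. Of 15 such genes tested, 10 were higher and 0 lower, with a median log2 ratio of 2.64. Ccl5, a chemokine for effector T cells, stood at 2553 CPM (2418 to 2692) in the Fscn1 class and 31.4 CPM (17.2 to 52.7) in the Cd209a class, a log2 ratio of 6.35 (5.59 to 7.22). It was held by 23 of 33 cells in the first and 2 of 32 in the second, at up to 379 UMIs in a cell. Of the fibroblast reference cells, 2.23% held it. Cacnb3 had 358 CPM from 32 of 33 cells and 0 UMIs in the 32 cells of the Cd209a class, a log2 ratio of 5.74 with 3 UMIs in place of 0, or 5.42 at the lower limit of counting error. Cd200, an inhibitory ligand for myeloid cells, had 338 CPM against 4.49 CPM, and Tnfrsf4 (OX40) 292 CPM against 6.73 CPM. Tmem123 and Cd63, a tetraspanin of endosomes, were present in both classes but higher in the Fscn1 class, by 2.64 and 4.07 on the log2 scale, and Samsn1 had 2147 against 538 CPM. Ly75, the uptake receptor DEC-205, had 266 CPM against 15.7 CPM.

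Other genes higher in the Fscn1 class reached beyond this list. Tbc1d4 stood at 1745 CPM against 213 CPM, Fabp5, a fatty acid chaperone, at 4488 CPM against 285 CPM, and Eno3, a glycolytic enolase, at 204 CPM against 2.24 CPM. The serpins Serpinb6b and Serpinb9, the latter an inhibitor of granzyme B, had 592 and 828 CPM against 15.7 and 117 CPM. Among transcription factors, Relb (log2 1.80), Stat4 (2.29), Batf3 (2.83) and Id2 (1.23) were higher. Of 9 MHC class I genes tested, 3 were higher and 0 lower: the immunoproteasome subunits Psmb8 (1274 CPM against 349.9) and Psmb9 (364 against 109.9) and the peptide transporter subunit Tap2 (117 against 31.4). Il2ra, the high-affinity interleukin 2 receptor chain, stood at 132 against 29.2 CPM. Genes of movement were higher in 4 of 8 cases, Marcks, Myo1g, Sema7a and Anxa3, with 0 lower. S100a8, a neutrophil alarmin, also passed the rule (log2 3.21), but its ratio was -0.40 without the mixed cells. The neutrophil list summed to 11207 CPM in the Fscn1 class and 1655 CPM in the Cd209a class, and the erythroid list to 81.1 and 7864 CPM, and their part in the class ratios was not tested.

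**Figure D4:**
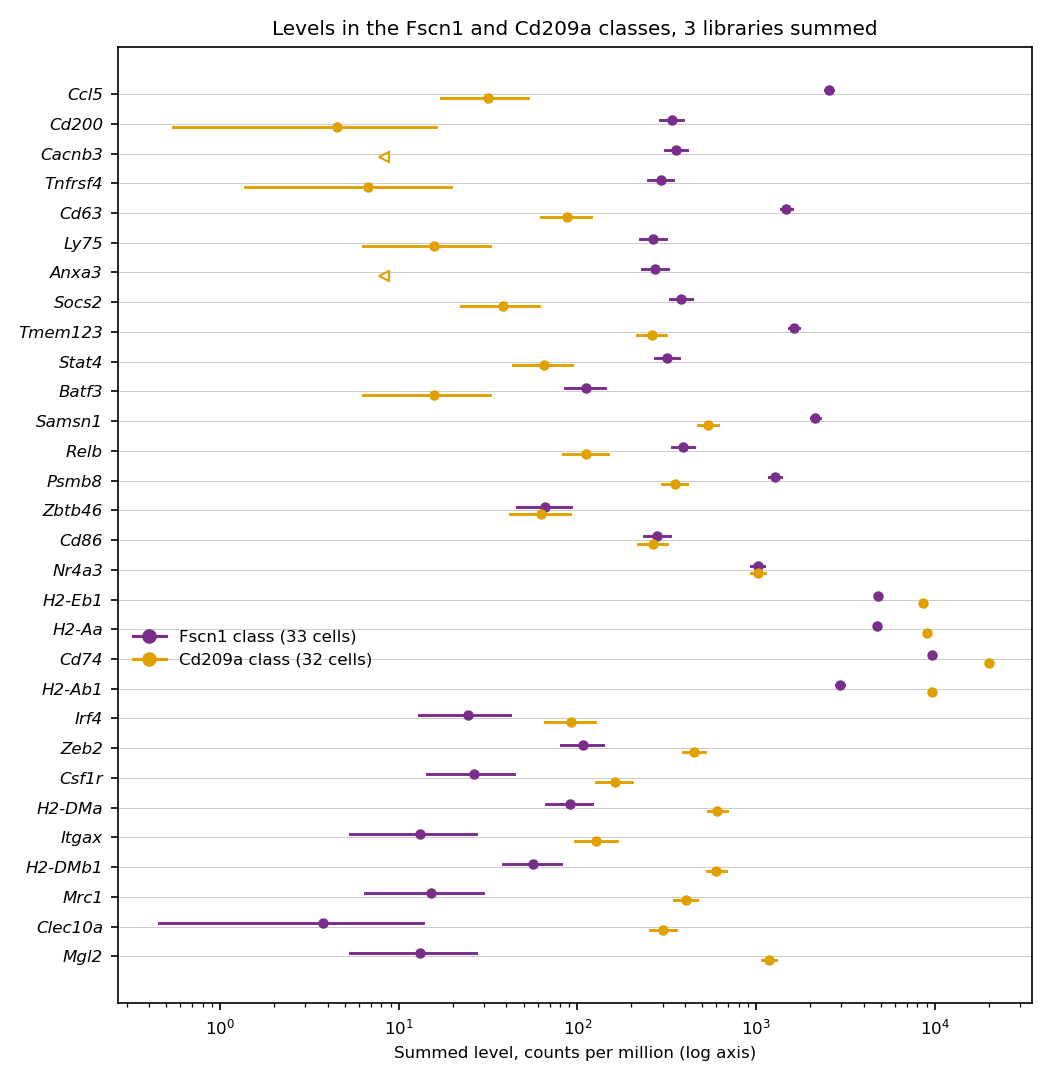
Points are CPM on a log axis in the Fscn1 class (33 cells) and the Cd209a class (32 cells), summed over the 3 wound libraries, with exact Poisson 95% intervals, and open triangles mark the upper bound where no UMI was found. Ccl5 to Psmb8 were higher in the Fscn1 class, Zbtb46, Cd86 and Nr4a3 overlap, and H2-Ab1 and the genes from Irf4 to Mgl2 were lower, while H2-Eb1, H2-Aa and Cd74 lay nearer to 2-fold apart (log2 -0.84, -0.93 and -1.05).

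The Cd209a class held the cDC2 lectins and more of the class II machinery. Of 7 cDC2 genes tested, 0 were higher in the Fscn1 class and 4 lower (Mgl2, Clec10a, Irf4 and Itgam), with a median of -1.91. Mgl2 stood at 1179.8 CPM (1081 to 1285) in the Cd209a class and 13.2 CPM (5.31 to 27.2) in the Fscn1 class, and 24 of 32 against 2 of 33 cells held it. Clec10a, the closely related galactose lectin, stood at 303 CPM against 3.77 CPM, held by 29 of 32 against 2 of 33 cells. Because these paralogs are alike in sequence, reads could be shared between them. Mrc1, the mannose receptor for uptake, had 406 CPM against 15.1 CPM, and Itgax 128 CPM against 13.2 CPM. The peptide loading genes H2-DMa (608 CPM against 90.6) and H2-DMb1 (599 against 56.6) were lower in the Fscn1 class, as was Ctss. Of 8 class II genes these 3 passed the rule and 0 were higher, with a median of -0.99. Cd74, at 20076 against 9673 CPM, differed by -1.05 on the log2 scale in the sum, with -1.34 in Ndrg2-KO DC wounds and -0.87 in blank hydrogel wounds, and so missed the rule. H2-Ab1, a gate gene, had 9687 CPM against 2956 CPM, a median of 130 against 30 UMIs per cell.

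Of 6 monocyte markers tested, 2, with Ccr2 among them, were lower in the Fscn1 class and 0 higher. Csf1r (161 CPM in the Cd209a class against 26.4 CPM), Ccr2 (117 against 35.8) and the decoy receptor Il1r2 (446 against 117) were all lower in the Fscn1 class. So was the transcription factor Zeb2 (449 against 108), and so was Vdr (148 against 41.5). Klrd1, which encodes the lectin receptor CD94, had 325 CPM against 35.8 CPM. Dab2, an adaptor of endocytosis, had 218 against 7.55 CPM, and Cfp, the complement factor properdin, 525 against 32.1 CPM. Macrophage genes proper were low in both classes: the list summed to 325 CPM in the Fscn1 class and 754 CPM in the Cd209a class, where Mrc1 gave more than any other of its genes, and Mertk was at 0.

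Some DC genes did not separate the classes. Zbtb46 stood at 66.0 CPM in the Fscn1 class and 62.8 CPM in the Cd209a class (log2 ratio 0.07, -0.69 to 0.84). Cd86 had 279 against 265 CPM (-0.28 to 0.44) and Cd80 142 against 150.3 CPM (-0.58 to 0.41), and none of the 5 costimulatory ligands tested passed the rule. Nr4a3 had 1021 against 1023 CPM (-0.19 to 0.18).

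Ccl17 and Il1b had negative class ratios in sum, but neither passed the rule for the classes, which also needs 2-fold in both Ndrg2-KO DC and blank hydrogel wounds. Ccl17 was held by 11 of 32 Cd209a cells and 10 of 33 Fscn1 cells, with a log2 class ratio of -1.90 in sum, 2.08 in Ndrg2-KO DC wounds and -4.95 in blank hydrogel wounds. In control DC wounds it had 82 UMIs in the Cd209a class and 0 in the Fscn1 class. A single cell gave 40 of the 62 Ccl17 UMIs of the Fscn1 class in Ndrg2-KO DC wounds, and without it the ratio there was 0.70. Il1b, the inflammatory cytokine, was held by 30 of 32 Cd209a cells at a median of 18 UMIs and by 23 of 33 Fscn1 cells at a median of 3 UMIs. It stood at 1460.3 CPM in the Fscn1 class and 3494 CPM in the Cd209a class, a log2 ratio of -1.26, with -0.42 in Ndrg2-KO DC wounds and -0.94 in blank hydrogel wounds, and in control DC wounds it had 0 and 650 UMIs. The highest cell, a mixed cell of blank hydrogel wounds, gave 271 of the 774 UMIs of the Fscn1 class. Without the mixed cells the ratio of Il1b was -2.18 in sum, -2.19 in Ndrg2-KO DC and -1.71 in blank hydrogel wounds.

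The 14 cells with neither gene lay between the classes for some genes and outside them for others. All 14 held Ccr7, at a median of 32.5 UMIs against 35 in the Fscn1 class and 3 in the Cd209a class, and 13 held Il4i1. Their H2-Ab1 was at a median of 117 UMIs, near the 130 of the Cd209a class. Mgl2 had 55.3 CPM, Ccl5 289 CPM and Cacnb3 67.6 CPM, each between the levels of the other classes. The median of Irf8 was 4.5 UMIs, against 6 in the Fscn1 class and 0.5 in the Cd209a class, and that of H2-Eb1 was 136 UMIs against 60 and 130. Mrc1 was below both, at 1 UMI. Ly75 stood at 221 CPM, nearer to the Fscn1 class, and Itgax at 123 CPM, although 1 cell gave 17 of its 20 UMIs. Of the 14 cells, 10 came from Ndrg2-KO DC wounds, where median depth was lowest.

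The shares of the classes were counted in each wound library. The Fscn1 class was 18.2% of DCs in control DC wounds (2 of 11, 2.28 to 51.8%), 38.2% in Ndrg2-KO DC wounds (13 of 34, 22.2 to 56.4%) and 48.6% in blank hydrogel wounds (18 of 37, 31.9 to 65.6%). The Cd209a class was 72.7% (39.0 to 94.0%), 26.5% (12.9 to 44.4%) and 40.5% (24.8 to 57.9%). The intervals of the Fscn1 share overlapped in all 3 libraries, as did those of the Cd209a share. All 9 Cd209a cells of Ndrg2-KO DC wounds held exactly 3 of the 8 genes. Over cells with at least 4 of them, the Cd209a class was 5 of 8 DCs in control DC wounds (62.5%), 0 of 17 in Ndrg2-KO DC wounds and 6 of 26 in blank hydrogel wounds (23.1%). The 0 of 17 allows up to 17.6% by 3 counts and up to 19.5% by the exact interval. The Fscn1 class was then 25%, 76.5% and 65.4%. Over all wounds this rule left 11 of 32 Cd209a class cells and 32 of 33 Fscn1 class cells, so the choice of cells favours the Fscn1 class. Per kept cell, the Fscn1 class was 0.103%, 0.229% and 0.529% and the Cd209a class 0.411%, 0.158% and 0.441%.

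Between libraries, the sums rest on 11, 34 and 37 cells, and a single cell can set a value. Of 1065 genes with at least 50 UMIs in either sum, 13.2% were at least 2-fold higher in DCs of Ndrg2-KO DC wounds than of control DC wounds and 3.29% lower, which are 141 and 35 genes. When each gene's highest cell was left out, 86 and 7 were left. Blank hydrogel against control DC wounds gave 10.9% of 1489 genes higher and 2.01% lower (163 and 30), and 77 and 3 without the highest cell. Ndrg2-KO DC against blank hydrogel wounds gave 2.67% of 1533 genes higher and 3.65% lower (41 and 56), and 14 and 19 without the highest cell. The control DC wounds enter both of the first comparisons, and the median log2 ratios were 0.20, 0.14 and -0.01.

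The lectins Cd209a, Mgl2 and Mrc1 were lowest in Ndrg2-KO DC wounds. Cd209a, a gate gene, gave 126, 40 and 219 UMIs and 627, 92.4 and 367 CPM. Mgl2 stood at 920.3, 73.9 and 555 CPM, a log2 ratio of -3.64 (-4.23 to -3.09) for Ndrg2-KO DC over control DC wounds and -2.91 (-3.48 to -2.38) over blank hydrogel wounds. Without the highest cell these were -2.79 and -2.54. Mrc1 stood at 378, 39.3 and 169 CPM. The ratios shrank within the Cd209a class, where Mgl2 was at -2.20 and Mrc1 at -1.87 for Ndrg2-KO DC over control DC wounds, and in all other kept cells Mgl2 was at -0.79 and Mrc1 at -0.16.

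Il4i1 was lowest in control DC wounds. It stood at 129, 705 and 491 CPM from 5 of 11, 25 of 34 and 32 of 37 cells, and it was 2.45 (1.87 to 3.08) and 1.93 (1.34 to 2.56) higher on the log2 scale in Ndrg2-KO DC and blank hydrogel wounds than in control DC wounds. It is a gate gene, so this describes the members. Apol7c, at 9.95, 628 and 132 CPM, came from 1, 4 and 5 cells, and 1 cell gave 62.9% of its UMIs in Ndrg2-KO DC wounds. Flt3 (189, 180.2 and 132 CPM), Ccl22 (791, 695 and 588 CPM) and Ccr7 (1259, 1753 and 1703 CPM) were within 2-fold in every pair.

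Of the genes of antigen presentation, H2-Aa was at -0.02 (-0.11 to 0.07) for Ndrg2-KO DC over control DC wounds and Cd74 at -0.20 (-0.26 to -0.14), and 0 of 7 class II genes tested passed 2-fold either way. Of 7 MHC class I presentation genes tested, 2 were higher in Ndrg2-KO DC than in control DC wounds and 0 lower, beside 13.2% and 3.29% of all genes tested. They were Psmb8 at 1.20 and Psmb9 at 1.10. Without the highest cell these were 1.05 and 0.89. Both are genes of the Fscn1 class, which held 13 of 34 DCs in Ndrg2-KO DC and 2 of 11 in control DC wounds. Within the Cd209a class Psmb8 was at 1.34 and Psmb9 at 0.28, and within the Fscn1 class they were at 0.49 and 0.32. Of 13 mature DC genes tested, 4 were higher in Ndrg2-KO DC than in control DC wounds and 1 lower, with a median of 0.85. Over all genes tested 13.2% were higher and 3.29% lower, with a median of 0.20. Cd83, a maturation marker that stabilises class II molecules, stood at 925, 367 and 533 CPM and was lower in Ndrg2-KO DC than in control DC wounds by the 2-fold rule, with -1.33 (-1.65 to -1.02), but -0.91 without the highest cell. Isg15, an interferon-induced ubiquitin-like protein, stood at 79.6, 414 and 116 CPM and was higher in Ndrg2-KO DC wounds than in either other library, by 2.38 and 1.84, and still by 2.03 and 1.49 without the highest cell. In other kept cells Isg15 differed the same way, by 1.44 and 0.65. Irf8, a DC lineage factor, stood at 174, 517 and 283 CPM, with 1.57 (1.05 to 2.13) for Ndrg2-KO DC over control DC wounds and 0.13 in other kept cells. A single cell of control DC wounds held 25 Irf8 UMIs, and no other there held more than 5. The median was 6 UMIs in the Fscn1 class, 4.5 in cells with neither gene and 0.5 in the Cd209a class. The Cd209a class held 8 of 11 DCs in control DC and 9 of 34 in Ndrg2-KO DC wounds.

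Several of the largest ratios were of genes known from other cells. S100a8 gave 2, 1590 and 1538 UMIs and S100a9 5, 1849 and 1681 UMIs in the DCs, and in all other kept cells they were also higher in Ndrg2-KO DC than in control DC wounds, by 1.70 and 1.67. Fibroblast reference cells, a cell type that should lack these neutrophil genes, held S100a8 at 5.99, 90.2 and 56.4 CPM. Without the mixed cells the log2 ratio of S100a8 was 2.85 and that of S100a9 1.11. The inflammatory chemokine Ccl3 stood at 4.97, 619 and 559.9 CPM and Ccl4 at 19.9, 1409 and 712 CPM. In blank hydrogel wounds 1 cell gave 83.8% of the Ccl3 and 84.2% of the Ccl4 UMIs, and without it the ratios over control DC wounds were 4.19 and 2.497 in place of 6.81 and 5.16. In Ndrg2-KO DC wounds 1 cell gave 40.7% of the Ccl3 UMIs. Tnf stood at 4.97, 437 and 236 CPM from 1, 9 and 11 cells, and its ratio was 6.46, or 5.39 without the mixed cells and 5.73 without the highest cell. In blank hydrogel wounds 1 cell gave 69.5% of the Tnf UMIs, and the ratio over control DC wounds was 5.57, or 3.86 without it. All other kept cells also differed the same way between Ndrg2-KO DC and control DC wounds, by 2.40 for Ccl3, 2.08 for Ccl4 and 2.29 for Tnf. The chemokine receptor Ccr1 was spread more evenly, with 1, 83 and 93 UMIs in 1, 17 and 17 cells, and its ratio was 5.27 (2.75 to 10.59), or 4.80 without the highest cell and 4.29 without the mixed cells. Col1a2 and Col3a1 in Ndrg2-KO DC wounds came to 98.5% and 95.9% from 1 cell, and 98.9% to 99.3% of the UMIs of the globins Hbb-bs, Hba-a1 and Hba-a2 in blank hydrogel wounds came from 1 cell. The part of free RNA in these ratios was not tested.

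Immediate early and heat shock genes, which also respond to the handling of cells, differed between the libraries. Of 6 tested, 5 were at least 2-fold higher in Ndrg2-KO DC than in control DC wounds and 0 lower, against 13.2% and 3.29% of all genes tested. The heat shock gene Hspa1a stood at 114, 554 and 63.7 CPM from 2, 9 and 8 cells, and its ratio was 2.28 over control DC wounds and 3.12 over blank hydrogel wounds, or 1.12 and 1.97 without the highest cell. Its neighbour Hspa1b stood at 84.6, 459.7 and 72.1 CPM, and its ratios were 2.44 and 2.67. The transcription factor Atf3 was at 2.78, Jun at 1.72 and Egr1 at 1.16 over control DC wounds, and Egr1 at 0.02 without the highest cell. In all other kept cells the Hspa1a ratio over control DC wounds was -0.34 and the Atf3 ratio -0.13. Blank hydrogel against control DC wounds had 2 of 4 genes higher and 0 lower, beside 10.9% and 2.01% of all genes tested. Ndrg2-KO DC against blank hydrogel wounds had 2 of 6 higher and 0 lower, beside 2.67% and 3.65%. The part of this response in the other ratios between libraries was not tested.

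The cell cycle genes gave small sums. Stmn1, a tubulin-binding protein of cycling cells, stood at 284, 83.2 and 21.8 CPM from 4, 6 and 7 cells, and Hist1h2ap at 57 UMIs in control DC wounds came to 96.5% from 1 cell. In control DC wounds 1 cell gave 54.4% of the Stmn1 UMIs. Without the highest cell the Stmn1 ratio of Ndrg2-KO DC over control DC wounds was -0.64 in place of -1.77. That of blank hydrogel over control DC wounds was -2.57 in place of -3.70. The 6 cell cycle genes summed to 746, 183 and 62.0 CPM in the DCs beside 105, 136 and 152 CPM in other cells.

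Cultured DCs offered a comparison for the same gate. In the bone marrow cultures, 1966 of 7257 untreated cells, 2376 of 8825 vitamin D3 (VD3) stimulated cells and 989 of 7969 Ndrg2-KO cells passed it, with a median of 15393.5, 14471 and 14055 UMIs. Ccr7 was held by 98.7%, 99.6% and 99.5% of them and Ccl22 by 99.7%, 99.4% and 99.9%, and the Fscn1 class held 93.1%, 86.1% and 53.8%. The Cd209a class held 10 untreated cells, 1 VD3 stimulated cell and 0 of 989 Ndrg2-KO cells, which allows a share of up to 0.303%. In the wounds it held 39.0% of the gated DCs (32 of 82). Culture and wound libraries were made and counted apart, with different Cell Ranger versions, so tissue and batch cannot be told apart.

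**Figure D5:**
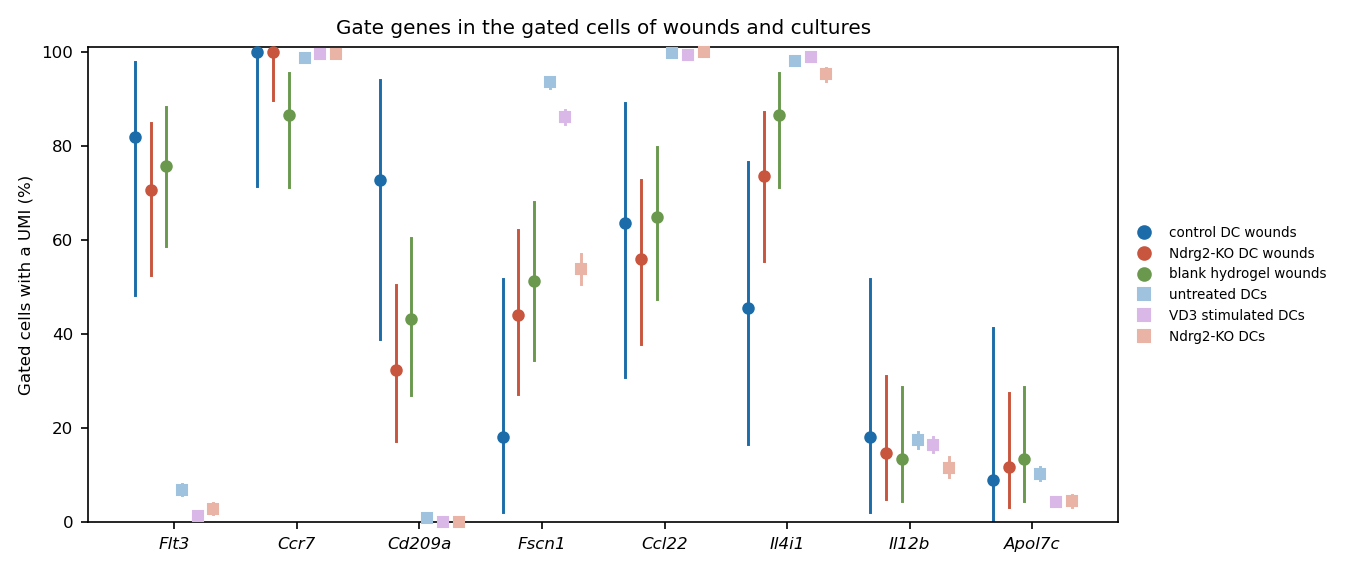
Points are the percent of gated cells with a UMI of each gate gene in the 3 wound libraries (circles) and the 3 cultures (squares), with exact 95% binomial intervals for counting error. Flt3 lies at 70.6% or more in the wounds and at 6.87% or less in the cultures, and Cd209a at 32.4% or more against 0.916% or less.

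Flt3 and Cd209a helped to choose the cells in both tissues, so their levels are given as a description. Within the Fscn1 class, Flt3 stood at 213 CPM in the wounds and 4.92, 1.39 and 5.29 CPM in untreated, VD3 stimulated and Ndrg2-KO cultures. Over all gated cells, Cd209a stood at 627, 92.4 and 367 CPM in the wounds against 1.44, 0.0511 and 0 CPM in the cultures.

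Within the Fscn1 class, wound cells were set against 1830, 2046 and 532 cultured cells. Of 1664 genes with at least 50 UMIs in the wound class or the same level in a culture, 18% were at least 2-fold higher in wounds than in each culture and 11.4% lower. H2-Ab1 stood at 2956 CPM in the wound class and 982, 614 and 1021 CPM in the cultured classes. The genes with the largest excess in the wounds included Asprv1, Retnlg, Lrg1, Hdc and Trem1, which neutrophils express, and 11 of the 33 wound cells were mixed. Also higher were Il1b (1460.3 CPM against 5.30, 7.35 and 22.9), Cxcl2, a chemokine for neutrophils (4732 against 15.7, 5.04 and 4.18), Tnf (419 against 6.53, 6.55 and 0.861) and Ccl3 (836 against 13.2, 15.6 and 10.7). A single cell gave 35.0% of the Il1b UMIs, 58.3% of the Cxcl2 UMIs, 44.1% of the Tnf UMIs and 63.2% of the Ccl3 UMIs. Ptgs2, the cyclooxygenase of prostaglandin synthesis, had 128 CPM from 16 of 33 cells against 0.821, 1.16 and 0.123 CPM, and Stat4 319 CPM against 75.7, 49.2 and 39.4 CPM.

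Other genes were lower in the wounds. Ccl17 stood at 126 CPM in the wound Fscn1 class against 2234, 961 and 2221 CPM, and Ccl5 at 2553 CPM against 7605, 5467 and 16545 CPM. Lpl, the lipoprotein lipase, gave 0 UMIs in the 33 wound cells against 463, 208 and 629 CPM, and Gpnmb, a glycoprotein of lipid-loaded myeloid cells, 0 UMIs against 36.6, 80.3 and 198 CPM. Ccr7 was closer, at 2455 CPM against 1079, 1365 and 954 CPM, as was Cacnb3, at 358 CPM against 587, 522 and 468 CPM. Cyp24a1, the vitamin D3 breakdown enzyme that VD3 induces, was at 0, 70.3 and 0 CPM in the gated cultured cells and 0 UMIs in the wound DCs. Gm42418, a transcript that overlaps ribosomal RNA, took 14.9%, 6.71% and 11.6% of the UMIs of the wound DCs and at most 0.0828% of those of gated cultured cells, so CPM of all other genes in the wounds are scaled down by as much.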

How the data were processed

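Single-cell RNA-seq matrices of 3 wound libraries and 3 cultures of bone marrow-derived DCs were used, 1 library per condition. The values are raw UMI counts per gene and barcode, deposited by the authors without normalization. The matrix headers name Cell Ranger 6.0.0 for the wounds and 3.1.0 for the cultures, and the submitters' processing notes list Seurat 3.1.1 and the mm9 build, while the paper's methods name mm10. No caller removed doublets: the highest 6% of Scrublet scores (scanpy 1.11.5) were left out as an alternative only.

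Members and gene lists were chosen with earlier results of these data known. Genes named were the gate genes, the 280 of 282 list genes that were measured (37 lists, 31053 features; Ifi30 and Clec7a were not analysed here), the 20 largest ratios of DCs over other cells with at least 10 UMIs in each library, and the 10 highest and 10 lowest ratios between wound libraries. The genes that lead the Fscn1 and Cd209a classes or the culture comparison were chosen after their values were seen, 15 each way by size. UMIs were summed over cells, divided by the total and multiplied by 1000000. Genes compared between libraries or classes had at least 50 UMIs. Intervals are exact Poisson (CPM), Clopper-Pearson (shares) and conditional binomial (ratios) at 95%. UMIs remove most PCR copies, and the intervals cover counting error only. A ratio against 0 used 3 UMIs in its place. The scripts were tested on simulated data. Python 3.11.15, numpy 2.4.6, scipy 1.17.1, pandas 2.3.3 and matplotlib 3.10.9 were used.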

Additional observations from a re-analysis of the deposited data

How the results depend on the processing

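No paired analysis was possible because each condition had 1 library, and no replicate could be left out. Leaving out mixed cells or each gene's highest cell, the classes by Fscn1 and Cd209a, and their shares with at least 4 of the 8 genes, were alternatives chosen after seeing the data. Thinned to 1000 UMIs, the share of DCs was 0% in control DC wounds, 0.161% in Ndrg2-KO DC wounds and 0.270% in blank hydrogel wounds, where fewer UMIs can pass the gate. With at least 4 of the 8 genes it was 0.411% in control DC, 0.299% in Ndrg2-KO DC and 0.764% in blank hydrogel wounds, so the first pair changed order. The Fscn1 class was then 76.5% of DCs in Ndrg2-KO DC wounds, and the Cd209a class 0% there and 23.1% in blank hydrogel wounds. This choice left 11 of 32 Cd209a class cells and 32 of 33 Fscn1 class cells, and so favours the Fscn1 class. The share of DCs with Ccr7 was 88.9% in Ndrg2-KO DC wounds when thinned and 100% in blank hydrogel wounds with 4 genes.

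Counts of 2-fold genes moved with the minimum of UMIs and with the highest cell. At 20 UMIs in place of 50, 393 genes were higher and 112 lower in Ndrg2-KO DC than in control DC wounds, 503 and 111 in blank hydrogel than in control DC wounds, and 134 and 220 in Ndrg2-KO DC than in blank hydrogel wounds. Without each gene's highest cell these were 86 and 7, 77 and 3, and 14 and 19. Without mixed cells, 90 and 107 genes were higher in Ndrg2-KO DC and in blank hydrogel than in control DC wounds. With 4 of the 8 genes, 23 genes were higher and 92 lower in Ndrg2-KO DC than in blank hydrogel wounds. The cause of these moves was not tested.

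Recomputed under the alternatives other than the highest cell, the log2 ratios of named genes stayed within their counting interval 294 times, moved past it 50 times and reversed 4 times for Ndrg2-KO DC over control DC wounds. These counts were 313, 59 and 4 for blank hydrogel over control DC wounds, 297, 57 and 11 for Ndrg2-KO DC over blank hydrogel wounds, and 116, 29 and 1 for the Fscn1 over the Cd209a class. For Ndrg2-KO DC over control DC wounds, Col1a2 was -0.46 without the highest doublet scores, -0.59 with under 2 C1q UMIs and -0.38 without mixed cells, and Hist1h2ap was 0.074 with at least 10 H2-Ab1 UMIs. For blank hydrogel over control DC wounds, Hist1h2ap was 0.77 without the highest doublet scores, 0.28 with at least 10 H2-Ab1 UMIs and 0.58 without mixed cells, and Hba-a1 was -0.68 without mixed cells. For Ndrg2-KO DC over blank hydrogel wounds, without the highest doublet scores, with 4 of the 8 genes and with under 2 C1q UMIs, Gpx3 was -1.75, -1.18 and -1.57 and Col4a1 was -3.81, -1.64 and -3.62. With 4 of the 8 genes Mmp12 was -0.93, Hbb-bs 1.89 and Hba-a2 1.94, and without mixed cells Hbb-bs was 1.78 and Hba-a2 1.62. S100a8 between the classes was -0.40 without mixed cells. Without each gene's highest cell, 2 of these ratios reversed for Ndrg2-KO DC over control DC wounds (Col1a2 -0.78 and Hist1h2ap 0.22) and 3 for blank hydrogel over control DC wounds (Hba-a1 -0.98, Postn -0.57 and Hist1h2ap 0.75). For Ndrg2-KO DC over blank hydrogel wounds 10 reversed, to -1.39 for Mmp12, -1.65 for Gpx3, -0.023 for Cxcl10, -3.71 for Col4a1, 1.87 for Hbb-bs, 1.46 for Hba-a2, 2.46 for Mmp3 and 0.46 for each of Tnc, Col12a1 and Ctgf. Another 8, 13 and 10 moved past their interval in the same order of comparisons.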
